A study of Homo sapiens with 28 samples.

Results

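Human embryonic kidney HEK293T cells, wild type in genotype, were given s4U, a thiolated uridine that cells build into newly made RNA, at 100 μM for 2 hours, or were left without it. The RNA was then treated with OsO4 and NH3, the chemistry whose samples carry the name TUC, and handled under drop-out conditions (DO) or improved handling (IH). Of the 28 samples of the series, the 6 with this chemistry are described here: 2 labelled DO, 2 labelled IH, and 1 sample without s4U for each handling. They were chosen by the chemistry in their labels and not by any measured value. The 12 libraries of the other 2 chemistries with both handlings, TL (TimeLapse) and SLAM, entered the fits to share the estimate of spread and were used to sort genes into classes. All groups share the cell line, and nothing in the labels says that libraries of a group came from separate cultures, so p-values measure the spread between these libraries, which may be technical.

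OsO4 with NH3 turns the s4U in RNA into cytidine, so that a read from RNA made during the labelling shows T-to-C mismatches. The share of a gene's reads that carry them rises with the turnover of its RNA: an RNA that is made and degraded quickly is mostly new after a short labelling, and a stable one is mostly old. Drop-out is the loss of labelled RNA or its reads relative to unlabelled RNA, and the comparison of the handlings asks how much of the new RNA each of them records. A read is called converted here when it has at least 1 T-to-C mismatch.

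Aligned reads numbered 1935777 to 2617895 per DO library and 4243992 to 4611985 per IH library. In the DO libraries 36.5% to 37.8% of these were assigned to no single gene, against 18.7% to 19.1% in the IH libraries. Depth and this share therefore separate the handlings completely, and their part in any difference between handlings cannot be told apart from the handling. Of the HEK293T markers PAX2, LHX1, SALL2, NEFM, NEFL and PRAME, the authors' deposited table of rate constants lists SALL2 and NEFM for this chemistry, and it lists 0 of 8 markers of liver, blood, connective tissue, endothelium, islet and muscle. In bulk RNA, fewer cells of a kind and less RNA per cell cannot be told apart.

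Almost every gene had a larger converted share under improved handling. The median gene had 13.7% and 9.93% converted exonic reads in the DO libraries and 27.03% and 22.8% in the IH libraries, over the 2803 genes that reached 50 exonic reads in all 4 labelled libraries. Without s4U the medians were 2.05% under DO and 2.42% under IH, so the background was low and similar in both handlings. The 4 labelled libraries did not overlap in this median. The upper end of the distribution moved too: 143 and 77 genes had more than 50% converted reads in the DO libraries, and 284 and 172 in the IH libraries.

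A quasi-likelihood test in edgeR compared converted with unconverted reads gene by gene, and 1248 of the 2803 genes, or 44.5%, changed at an adjusted p under 0.05. The converted share rose in 1247 of the tested genes (44.5%) and fell in 1 (0.0357%). The median log2 odds ratio of IH over DO was 1.14, and it was above 0 in 2685 genes. Both IH libraries lay above both DO libraries in 2202 genes and below both in 22. The number of called genes depended on single libraries: it was 369 without IH replicate 1 and 507 without DO replicate 2. It was 476 of 1466 genes when only reads with 25 to 40 T positions were kept, with a median log2 odds ratio of 1.10, beside 1.14 for all reads.

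Where the 4 labelled libraries averaged 200 reads or more, the largest called rises were in a chromosome 2 gene and a chromosome 19 gene, given here by the identifiers of the count table, which holds no symbols. ENSG00000130414 on chromosome 2 had 9.01% and 3.42% converted reads under DO and 41.1% and 34.9% under IH, with 1.41% and 1.40% in the DO and IH libraries without s4U. Under DO its mean was 6.21% ± 3.95, under IH 38.0% ± 4.43 (SD, n = 2 each). Its DO values rest on 111 and 117 reads, against 333 and 347 under IH, so it reached that mean only through the IH libraries and is given as a description with no test. ENSG00000105486 on chromosome 19 had 2.08% and 2.00% converted reads under DO, below the 2.60% of its own DO library without s4U. Under IH it had 19.3% and 11.6%, against 2.35% without s4U, and the log2 odds ratio was 3.09 (SE 0.45, edgeR adjusted p = 5.90e-07). With at least 2 mismatches to call a read converted, the log2 odds ratio was 5.24. For this gene no conversion above background was detectable in the labelled DO libraries, with 400 and 432 reads, and it was in both labelled IH libraries.

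One gene was called in the other direction. ENSG00000263934 on chromosome 17 had 26.7% and 16.6% converted reads under DO and 9.38% and 8.14% under IH, a log2 odds ratio of -1.48 (SE 0.61, edgeR adjusted p = 0.041). It had fewer reads than the gene selection asked for, 120.75 on average per labelled library, and is named because it was the one gene called lower. No gene was called lower with at least 2 mismatches, with a minimum of 20 reads, on reads with 25 to 40 T positions, with intronic reads added, with DESeq2, or without DO replicate 1, IH replicate 1 or IH replicate 2. Its libraries without s4U, at 6.34% under DO and 4.29% under IH, were above the median gene of those libraries.

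Reads also carried more mismatches each under improved handling. Of the exonic reads of the 2803 genes, 1.47% and 0.649% had 5 or more T-to-C mismatches in the DO libraries and 6.14% and 3.61% in the IH libraries. The share with exactly 1 mismatch differed less, at 6.78% and 6.51% against 8.01% and 8.60%. Each library was fitted as a mixture of old and new reads. Old reads took the mismatch rate of the library without s4U, and all new reads took 1 rate of their own. The fit estimates how many reads are new and how heavily they are converted. Whether a single rate describes the new reads was not checked, so the 2 estimates need not be fully separate. New reads made up 11.6% ± 2.73 of the DO and 22.7% ± 1.54 of the IH libraries (SD, n = 2 each). Of the T positions of new reads, 6.23% ± 0.96 were converted in the DO libraries and 8.55% ± 1.43 in the IH libraries (SD, n = 2 each). Both quantities were thus higher under IH, each with its 2 libraries above both DO libraries: 9.69% and 13.6% new reads against 21.6% and 23.7%, and rates of 5.55% and 6.91% against 7.53% and 9.56%.

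Reads of the IH libraries held more T positions, 35.0 ± 0.025 on average against 32.3 ± 0.62 (SD, n = 2). The part of this difference in the converted shares was not tested beyond the reads with 25 to 40 T positions above. Among reads with 30 to 39 T positions, 13.2% and 9.89% were converted under DO and 23.6% and 20.99% under IH. Among reads with under 20, the shares were 11.2% and 8.40% under DO and 18.8% and 15.3% under IH.

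Genes were then sorted by turnover into 5 equal classes of 419 genes, using the converted shares of the IH libraries of the other 2 chemistries, which do not enter the OsO4 and NH3 contrast. The labels do not say whether the chemistries were applied to parts of the same RNA, so the classes come from other libraries but perhaps not from other cells. In the slowest class the median gene had 7.08% and 5.58% converted reads under DO and 12.9% and 11.1% under IH. In the fastest class it had 33.8% and 23.5% under DO and 49.04% and 43.2% under IH. The order of the classes was the same in all 4 labelled libraries, and in each class both IH libraries lay above both DO libraries. In the libraries without s4U the order ran the other way under DO, from 2.83% in the slowest to 1.75% in the fastest class, and the medians stayed between 2.37% and 2.75% under IH.

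**Figure D1:**
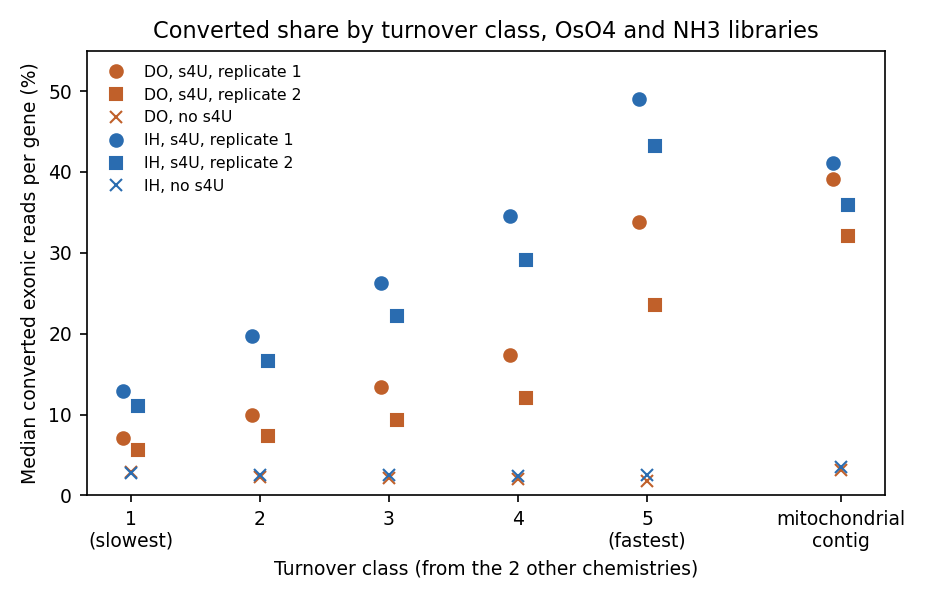
Median percent of converted exonic reads per gene (vertical axis) in 5 turnover classes of 419 genes and in 14 genes of the mitochondrial contig, one point per library, with crosses for the libraries without s4U. Within every turnover class the IH points sit above the DO points, while for the mitochondrial contig DO replicate 1 (39.1%) sits above IH replicate 2 (35.9%). The 14 mitochondrial genes are also counted in the turnover classes.

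On the odds scale the change was largest in the fourth class and smaller at both ends when 1 mismatch made a read converted. These odds ratios are not corrected for the background seen without s4U. With at least 2 mismatches, where the genes were also sorted into classes anew, the order of the end classes turned. The median of the slowest class was then 1.61, above the 1.30 of the fastest and the 1.54 of all genes. The classes between them were not compared in that setting. With 1 mismatch the median log2 odds ratios from the slowest to the fastest class were 0.86, 1.15, 1.23, 1.37 and 1.04, and 38.4%, 49.6%, 55.6%, 59.9% and 40.8% of the genes were called, beside 44.5% of all genes tested. The percentages called rest on unequal coverage. In DO replicate 1 the slowest class had 359355 exonic reads and the fastest 77848. With 1 library left out, the median of the fastest class ranged from 0.73 to 1.42 and that of the slowest from 0.74 to 1.08. The fastest class stayed above the slowest except without DO replicate 2, where the medians were 0.729 and 0.739. Their order thus turned, by a small margin, without that library. In percent, the mean of the library medians went from 6.33% ± 1.06 to 12.01% ± 1.28 in the slowest class, from 14.7% ± 3.75 to 31.8% ± 3.84 in the fourth, and from 28.7% ± 7.26 to 46.1% ± 4.13 in the fastest (SD, n = 2 each). The mixture fit, which takes in the mismatch rate without s4U, gave another pattern. New reads made up 2.89% ± 1.07 and 7.61% ± 0.58 of the slowest class under DO and IH. In the next classes the means were 7.54% and 17.5%, 13.2% and 23.6%, 20.6% and 32.9%, and in the fastest 42.2% and 52.9%. In proportion this rise shrank from the slowest to the fastest class, with no peak in the fourth. The DO value of the slowest class rests on shares that are close to the background.

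Genes of the mitochondrial contig, which are also counted in the turnover classes, had high converted shares in both handlings. They are transcribed inside the mitochondrion by a polymerase of its own into long joint transcripts that are then cut apart. The median of its 14 genes was 39.1% and 32.1% under DO and 41.1% and 35.9% under IH, so the handlings overlapped. The median log2 odds ratio was 0.18, against 1.14 over all genes, and 0 of 14 genes were called, against 44.5% of all genes tested. In the mixture fit 37.0% ± 4.50 of the DO reads and 34.3% ± 0.42 of the IH reads were new (SD, n = 2 each). The T-to-C rate of these new reads went from 3.23% ± 0.31 to 4.83% ± 0.69 (SD, n = 2 each). For these RNAs the rate of the new reads did not overlap between handlings, at 3.01% and 3.45% against 4.34% and 5.32%, and the share of new reads did. A difference between mitochondrial and nuclear genes was not tested.

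Intronic reads come mainly from RNA that has not yet been spliced, and so mainly from new RNA. Over the 158 genes that reached 50 intronic reads in all 4 labelled libraries, the median intronic converted share was 48.5% and 39.3% under DO and 83.0% and 77.0% under IH, with 1.52% and 1.42% without s4U. It rose in 119 of the 158 genes, or 75.3%, and fell in 0, with a median log2 odds ratio of 1.98 (edgeR's quasi-likelihood test). In the 128 genes measured in both, the intronic change was the larger one in 110, with medians of 2.04 for introns and 1.15 for exons. The exonic medians of those genes were 11.96% and 8.76% under DO and 23.9% and 20.9% under IH. These genes were abundant enough in reads marked intronic to be measured and are not a sample of all genes. The authors' intronic mark also covers reads of 7 genes of the mitochondrial contig, which has no introns. Of these 7, 0 were called, at log2 odds ratios of -0.43 to 1.12, and without them 120 of 151 genes were called with a median of 2.03. On chromosome 21, ENSG00000278996 and ENSG00000280441 averaged 92279 and 130418 marked reads per labelled library, with log2 odds ratios of 0.34 and 0.66. On chromosome 14, ENSG00000276168 with 14299 had 0.49 and ENSG00000213741 with 2762 had 3.05. Whether the marked reads of each gene come from unspliced RNA was not tested.

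Genes were also sorted into 5 classes by the intronic share of their reads in the IH libraries without s4U of the other 2 chemistries, a grouping chosen after the values above were seen. From the lowest to the highest intronic share, the median log2 odds ratios of the exonic converted share were 0.85, 1.08, 1.22, 1.29 and 1.28. Within each turnover class, the genes above the class median of intronic share had the larger median change: 0.97 against 0.80 in the slowest class, 1.47 against 1.30 in the fourth and 1.14 against 0.94 in the fastest. These odds ratios are not corrected for background, which differed between the groups. In the DO library without s4U the median fell from 2.67% in the lowest to 1.56% in the highest intronic class. In the genes above and below the class median it was 2.57% and 2.99% in the slowest turnover class and 1.51% and 1.92% in the fastest. The part of the background in these changes was not tested. These are descriptions across genes, which share libraries and are not independent replicates.

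**Figure D2:**
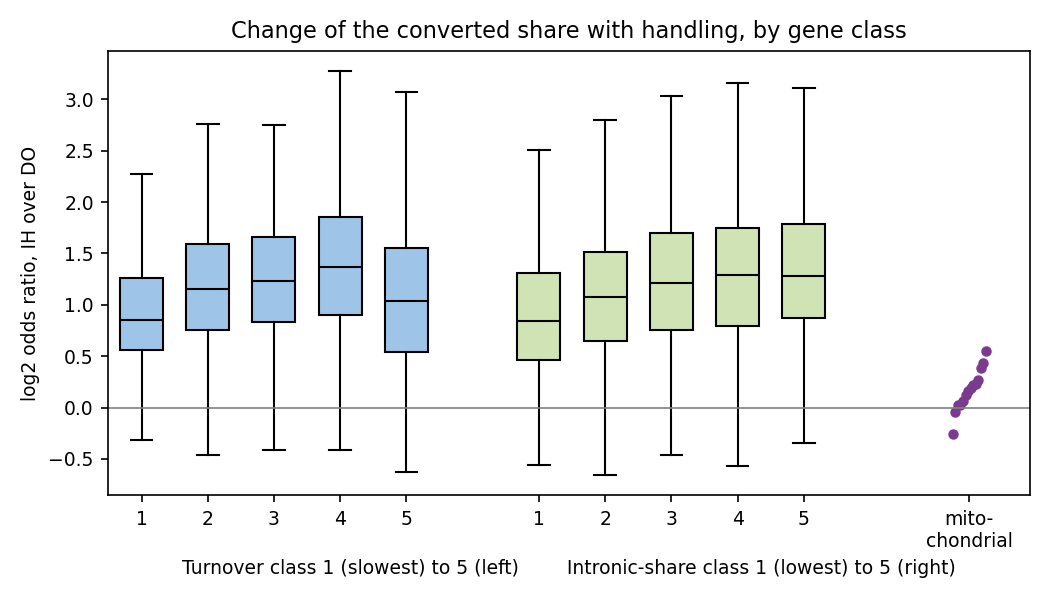
Log2 odds ratio of the converted exonic share, IH over DO (vertical axis), by turnover class (blue), by intronic-share class (green) and for the 14 genes of the mitochondrial contig (points). Boxes span the quartiles with the median as a line and whiskers reach the farthest gene within 1.5 box lengths. The class medians lie between 0.85 and 1.37, and the mitochondrial median is 0.18. The odds ratios are not corrected for background. The 14 mitochondrial genes are also counted in the turnover classes.

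Whether the label changed the counts of fast RNAs against slow ones by another amount under DO than under IH was tested next. For each labelled library the gap between the fastest and the slowest class was taken as the difference of their median log2 count against the library without s4U of the same handling. The gap was -0.05 and -0.23 in the DO libraries and -0.10 and -0.20 in the IH libraries. The IH values lie within the range of the DO values. The mean difference, IH minus DO, was -0.0066 on the log2 scale (two-sided exact permutation p = 1 over 6 arrangements, where the smallest p the design allows is 0.333). This permutation test therefore could not have passed 0.05 with 2 against 2 libraries. This gap is net of the libraries without s4U, and the change of counts with handling itself, class by class, is given with the counts by gene.

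Exonic read counts differed between handlings in most of the genes tested with s4U. In the labelled libraries 7821 of 12449 genes, or 62.8%, changed (edgeR's quasi-likelihood test, adjusted p under 0.05), and 4451 (35.8%) rose under IH while 3370 (27.1%) fell. The median log2 change over all genes tested was 0.43 in the labelled libraries and 0.33 without s4U, so single changes are best read against these medians. Without DO replicate 2 the balance turned, with 2847 genes higher and 3078 lower and a median of 0.24. Of the 7821 genes, 7680 or 98.2% had the same sign in the single pair of libraries without s4U. Across genes the labelled and unlabelled changes had a Spearman rho of 0.857, given as a description, since genes are not independent replicates and all values share the libraries' makeup.

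The genes picked as the largest rises had nearly no reads under DO and reached the required mean of 100 reads only through the IH libraries, so their values are given as a description with no test. ENSG00000232931 on chromosome 2 had 4.15 and 1.26 CPM in the labelled DO libraries, from 4 reads and 1 read, and 134 and 116 in the IH libraries. It also had 1.36 CPM without s4U under DO and 127 under IH, so the difference was present without the label. ENSG00000138688 on chromosome 4 had 5.19 and 1.26 CPM under DO, from 5 reads and 1 read, and 157 and 131 under IH. Without s4U it had 14.9 CPM under DO and 129 under IH.

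Among the falls, ENSG00000203814 on chromosome 1 had at least 266 reads in every labelled library. It had 1322 and 1196 CPM under DO and 121 and 134 under IH, and its log2 change was -3.30, with SE 0.22 and an edgeR adjusted p of 1.22e-09. ENSG00000196890 on chromosome 1 reached the required mean only through the DO libraries, with 295 and 243 CPM there and 20.98 and 26.3 under IH, and is given with no test. Without s4U the log2 changes of these genes were -2.19 and -2.13.

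A direct test asked which genes changed with handling by another amount in labelled than in unlabelled RNA. With edgeR's test of the interaction, 0 of 12449 genes (0%) were called, 468 had an unadjusted p under 0.05, and DESeq2 called 0 with 224 at that unadjusted level. The unlabelled side of this test has 1 library per handling, whose spread was taken from the other groups. The median interaction was -0.08 on the log2 scale.

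By turnover class, the median log2 count change of the labelled libraries was -1.47, -1.37, -0.995, -0.82 and -0.48 from the slowest to the fastest class. Without s4U it was -1.45, -1.25, -1.001, -0.82 and -0.51. The fastest class was thus higher relative to the slowest by 0.99 with s4U and by 0.94 without it. All class medians are below 0 although the median over all 12449 genes is above it. Genes in the classes needed 50 reads in the shallower DO libraries too, a filter that favours genes that fell. The 12449 genes could pass their filter on the IH libraries alone, which favours genes that rose. The 14 genes of the mitochondrial contig all fell in the labelled libraries, with a median log2 change of -0.89, and their median was -1.44 without s4U. Of the 2803 genes under the same read filter, 1978 were called lower, with a median of -1.22, so a fall was common among genes of this coverage.

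**Figure D3:**
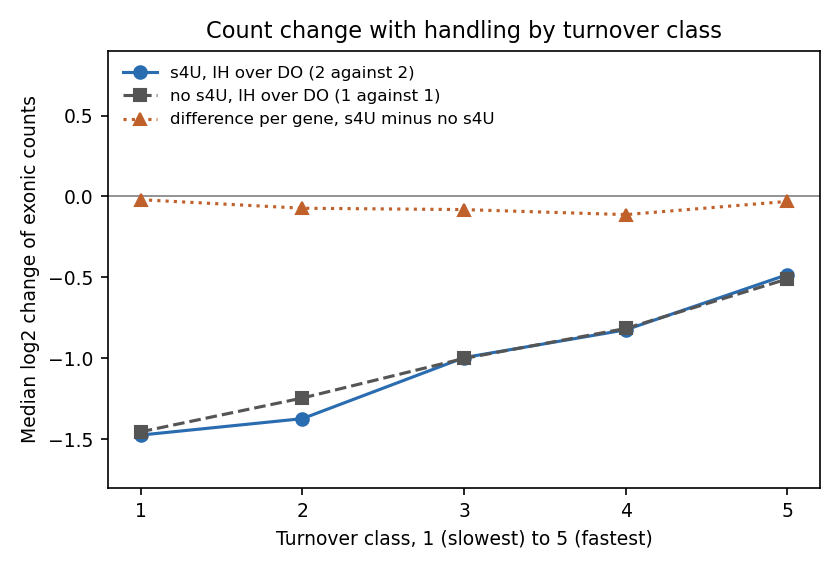
Median log2 change of exonic counts, IH over DO (vertical axis), in the 5 turnover classes, for the labelled libraries (circles), for the pair without s4U (squares) and for the difference of both per gene (triangles). With and without s4U the medians rise from -1.47 and -1.45 in the slowest class to -0.48 and -0.51 in the fastest, and they are farthest apart in class 2, at -1.37 and -1.25.

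The change of the converted share was set beside that of the other 2 chemistries in the 1992 genes covered in all 12 labelled libraries. The median log2 odds ratio was 1.14 with OsO4 and NH3, 1.06 with TL and 1.07 with SLAM (1025, 911 and 937 of these genes rose). A test of the difference between the OsO4 and NH3 change and the mean of the other changes, added to the planned comparisons, called 0 genes (0%), with 34 at an unadjusted p under 0.05 (edgeR). The median difference was 0.07. A missed threshold does not show that the chemistries act alike.

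The authors' deposited table gives a degradation rate constant per transcript and handling, estimated with bakR, a Bayesian model of T-to-C counts in which a larger share of new reads gives a larger constant. These constants come from the same libraries as the converted shares and are not independent of them. Per the authors' deposited table, the median constant over 2262 transcripts was 0.0411 under DO and 0.0998 under IH, in an unstated time unit, and the median log2 change was 1.19. The authors' adjusted p was under 0.05 for 1099 transcripts, or 48.6%, with 1089 (48.1%) higher under IH and 10 (0.442%) lower. A log2 change below 0 was listed for 161 transcripts of the authors' deposited table.

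The 5 largest rises in the authors' deposited table began from low constants under DO. RPSA, a protein of the small ribosomal subunit with many processed pseudogenes that can share its reads, went from 0.00272 to 0.0540 in the authors' deposited table, a log2 change of 4.36 (authors' adjusted p = 1.81e-15). PPME1, a phosphatase methylesterase, went from 0.0105 to 0.153 there, and PSMD8, a proteasome subunit, from 0.00485 to 0.0653, per the authors' deposited table. NUP205, a nuclear pore scaffold protein, went from 0.0123 to 0.169 and ZSWIM8, a ubiquitin ligase subunit known for microRNA decay, from 0.0181 to 0.218 in the authors' deposited table. Their log2 changes in the authors' deposited table ran from 3.79 to 4.13.

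Of the 10 transcripts with lower constants in the authors' deposited table, RMRP, RPPH1 and RN7SL1 are made by RNA polymerase III: the RNAs of RNase MRP, of RNase P and of the signal recognition particle. In the authors' deposited table RMRP went from 0.0264 to 0.00953 (authors' adjusted p = 2.09e-05), RPPH1 from 0.0135 to 0.00600 and RN7SL1 from 0.0202 to 0.00990. RN7SL5P, a pseudogene of the signal recognition particle RNA, fell by 2.26 on the log2 scale, and the ribosomal protein pseudogene RPL23AP42 by 1.69, in the authors' deposited table. Near-identical copies share reads, so single values of such copies are uncertain: RN7SL2 rose by a log2 change of 0.62 (authors' adjusted p = 0.035) in the authors' deposited table where RN7SL1 fell by 1.03.

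The other 5 lower transcripts of the authors' deposited table code for proteins, out of 2207 protein-coding ones. EEF2, the translation elongation factor that moves the ribosome along the mRNA, went from 0.0592 to 0.0278 (authors' adjusted p = 0.00015), and JUN, an early response transcription factor, from 1.02 to 0.563 (authors' adjusted p = 0.0025), per the authors' deposited table. ZNF777, TSC22D3 and CDC42EP1 fell by 0.80, 0.78 and 0.74 on the log2 scale in the authors' deposited table. In the other chemistries, by the authors' deposited table, RMRP, RPPH1, RN7SL1, RN7SL5P, EEF2 and JUN were also called lower with both TL and SLAM. RPL23AP42 and CDC42EP1 were called lower with SLAM and not with TL, where RPL23AP42 had a log2 change of 0.06 and CDC42EP1 of -0.46 in the authors' deposited table. ZNF777, listed for TL alone, was not called there (authors' adjusted p = 0.054), and TSC22D3 was called with neither, at log2 changes of -0.45 and -0.21 in the authors' deposited table.

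**Figure D4:**
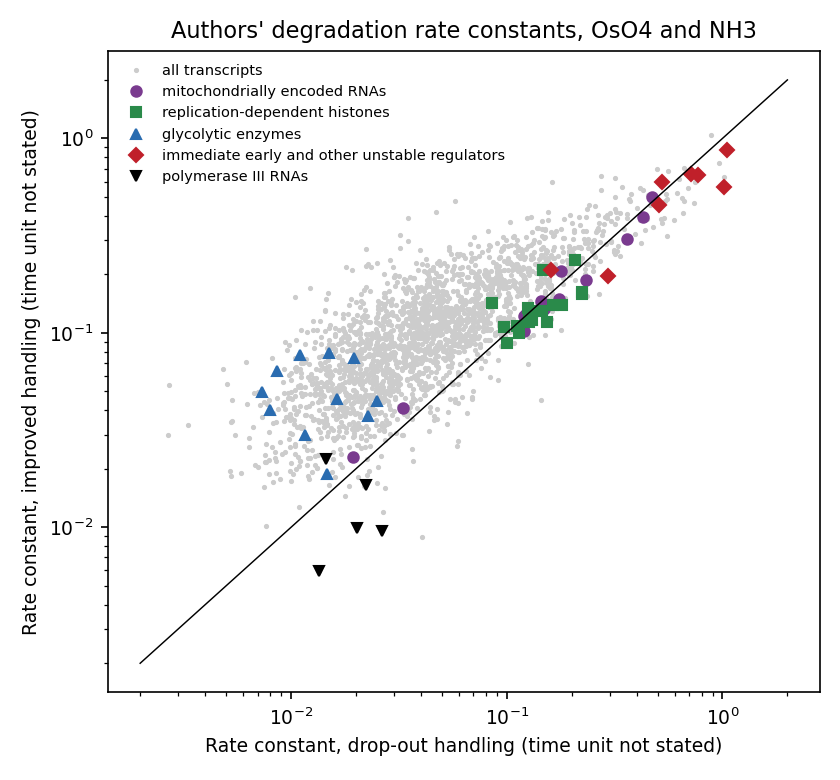
Authors' degradation rate constant of each of 2262 transcripts under drop-out handling (horizontal) and improved handling (vertical), both on log axes without a stated time unit, with the diagonal of equal values. Most grey points lie above the diagonal, while the 13 mitochondrially encoded RNAs and 19 histone mRNAs lie along it and 4 of 5 polymerase III RNAs lie below it.

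Immediate early regulators, which are known for short-lived mRNAs, were not called higher in any measured member. Of 49 immediate early and other unstable regulators, 8 are in the authors' deposited table for this chemistry. Their median constant there was 0.620 under DO and 0.581 under IH. Of the 8, 0 rose and only JUN fell, against 48.1% higher and 0.442% lower over all transcripts. The median log2 change was -0.20, against 1.19 over all transcripts. MYC, a growth-promoting transcription factor, went from 1.05 to 0.871 (authors' adjusted p = 0.44) and PPP1R15A, a stress-induced phosphatase regulator, from 0.772 to 0.648 (authors' adjusted p = 0.52) in the authors' deposited table. Zinc finger and other DNA-binding factors had median constants of 0.145 under DO and 0.245 under IH over 18 members of the authors' deposited table. Of these, FOXK2 and MXD4 rose (11.1% of the members called, against 48.6% of all transcripts), and the median log2 change was 0.46. FOXK2 went from 0.124 to 0.390 in the authors' deposited table. ZIC2 and ZNF703, the members with the highest constants in the other chemistries, had log2 changes of -0.65 and -0.38 that did not pass the authors' adjusted p in the deposited table.

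Noncoding hosts of small nucleolar RNAs, whose spliced products are known to decay quickly, rose in 6 of the 7 measured members of the authors' deposited table (85.7%, against 48.1% of all transcripts), with a median log2 change of 1.57. SNHG17 went from 0.109 to 0.316 and SNHG1 from 0.146 to 0.314 in the authors' deposited table, and GAS5, a growth arrest transcript, from 0.0493 to 0.223. Of the list of SR splicing proteins, CLK kinases and other genes that keep introns in part of their transcripts, 8 are in the authors' deposited table: SRSF3, SRSF4, SRSF5 and SRSF7, which are SR proteins, the RNA helicases DDX5 and DDX17, and the RNA-binding proteins HNRNPDL and SNRNP70. No CLK kinase is among them. Of these, 6 of 8 rose in the authors' deposited table (75%, against 48.1% of all transcripts), among them DDX5, DDX17 and SNRNP70. Their median log2 change was 1.23, close to the 1.19 of all transcripts. SRSF7 rose from 0.101 to 0.243 there (authors' adjusted p = 0.020), while SRSF4 had a log2 change of 0.53 that did not pass (authors' adjusted p = 0.21). MALAT1, a nuclear noncoding RNA, had a log2 change of 0.55 in the authors' deposited table (authors' adjusted p = 0.19).

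Stable metabolic mRNAs had some of the larger list medians in the authors' deposited table. Glycolytic enzymes rose in 9 of 11 (81.8%, against 48.1% of all transcripts), with a median log2 change of 1.98 and median constants of 0.0146 under DO and 0.0459 under IH. PFKM, a phosphofructokinase subunit, went from 0.0151 to 0.0791 and HK1, a hexokinase, from 0.0195 to 0.0739 in the authors' deposited table, while ALDOA, an aldolase, had a log2 change of 0.36 that did not pass (authors' adjusted p = 0.39). Nuclear-encoded subunits of the respiratory chain rose in 11 of 15 (73.3%, against the same 48.1%) with a median of 1.96 in the authors' deposited table. Both lists began from low constants under DO, with a median of 0.0122 for the respiratory chain, against 0.0411 over all transcripts. How far changes from such low constants depend on the background was not tested. SDHA, a subunit of succinate dehydrogenase, went there from 0.0427 to 0.110, and ATP5G3, a subunit of the ATP synthase, from 0.0285 to 0.116. The 13 mitochondrially encoded RNAs of the authors' deposited table had a median of 0.02, and 0 of them were called, against 48.6% of all transcripts. MT-ND1 and MT-ND2, subunits of the same chain's first complex, had constants of 0.472 and 0.428 under DO and 0.497 and 0.395 under IH in the authors' deposited table.

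Cytoplasmic ribosomal proteins rose in 42 of 67 (62.7%) in the authors' deposited table and fell in 0, against 48.1% higher and 0.442% lower over all transcripts. The median log2 change was 1.13, close to the 1.19 of all transcripts. RPS29 went from 0.0508 to 0.177 and RPL37 from 0.0194 to 0.0842 there, while RPL23 had a log2 change of -0.35 that did not pass (authors' adjusted p = 0.49). Of 7 translation elongation and related factors in the authors' deposited table, EEF1A1 and BTF3 rose, EEF2 fell and the median was 0.28. These called members are 42.9% of the list, against 48.6% of all transcripts. EEF1A1, which delivers tRNA to the ribosome, rose from 0.0125 to 0.0250 in the authors' deposited table where EEF2 fell, and NACA had a log2 change of 0.20 that did not pass. Actins, tubulins and intermediate filaments rose in 3 of 11 (27.3%, against 48.1% of all transcripts) with a median of 0.54 in the authors' deposited table, and those 3 were TUBB4B, TUBA1B and VIM. Chaperones rose in 4 of 11 (36.4%, against the same 48.1%) with a median of 0.80 there. HSPA8, a constitutive chaperone, went from 0.0766 to 0.180, and HSPA5, the chaperone of the endoplasmic reticulum, from 0.124 to 0.135 without passing the authors' adjusted p in the deposited table.

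Replication-dependent histones, whose mRNAs end in a stem-loop in place of a poly(A) tail, were not called in 19 of 19 members of the authors' deposited table, where 48.6% of all transcripts were called. Their median constant was 0.131 under DO and 0.129 under IH, and 14 of the 19 log2 changes were below 0, against 161 of 2262 overall. HIST1H2BD had a log2 change of 0.50 and HIST1H1C of -0.45 in the authors' deposited table, and many histone genes are near-identical copies that can share reads. Genes of DNA replication and mitosis rose in 12 of 23 (52.2%) with a median of 1.11 in the authors' deposited table, near the 48.1% and 1.19 of all transcripts. MCM5, a subunit of the replicative helicase, rose from 0.0430 to 0.202, and AURKB, a mitotic kinase, from 0.0722 to 0.201 in the authors' deposited table. The HEK293T markers SALL2 and NEFM had log2 changes of 0.16 and -0.09 that did not pass there.

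**Figure D5:**
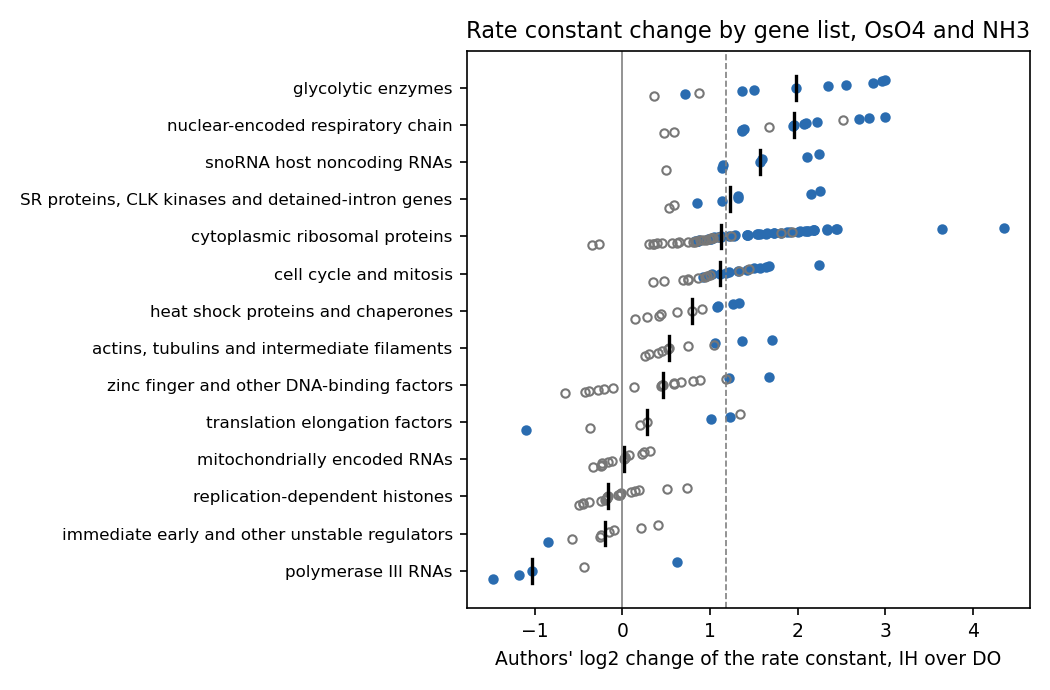
Authors' log2 change of the rate constant, IH over DO (horizontal axis), for the members of each gene list with at least 5 measured members. Filled points have the authors' adjusted p under 0.05, black bars are list medians and the dashed line is the median of all transcripts (1.19). List medians run from -1.03 for the polymerase III RNAs to 1.98 for the glycolytic enzymes.

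Sorted by the rate constants of the other 2 chemistries under IH, 1471 transcripts of the authors' deposited table fell into 5 classes. Their median log2 changes were 1.13, 1.30, 1.22, 1.28 and 0.89 from the slowest to the fastest, and 46.4%, 55.1%, 54.8%, 60.5% and 47.6% were called, beside 52.9% of the 1471 and 48.6% of all transcripts. Constants of the fastest class had medians of 0.129 under DO and 0.229 under IH in the authors' deposited table, and those of the slowest 0.0161 and 0.0355. By the length of the gene in RefSeq, 5 equal classes in the authors' deposited table had median changes of 1.01, 1.14, 1.29, 1.23 and 1.25 from the shortest to the longest. Of their transcripts 37.6%, 45.1%, 53.1%, 52.8% and 55.7% were called, beside 48.6% of all. Of the transcripts called with OsO4 and NH3 and listed for TL, 81.0% were also called in the same direction there in the authors' deposited table, which is 73.8% of those called with TL. Of all transcripts listed for both, 55.6% were called with TL in the authors' deposited table. For SLAM the shares were 76.8% and 78.5%, beside 51.5% of all transcripts listed for both. The same RNA may lie behind all 3 chemistries here too.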

How the data were processed

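Members and gene lists were chosen with earlier results of these data known. The authors deposited counts of reads per library, aligner, settings code, contig and gene, split by an intronic flag and by the T-to-C mismatches and T positions of a read, which are other whole numbers. The submitters' processing notes name cutadapt, HISAT2, STAR, HISAT, Picard, HTSeq, DESeq2 and GRCh38 without versions or settings. The deposited bakR table holds rate constants (other values, no time unit), their log2 fold change and adjusted p-values, made by the authors per the labels. Its direction, IH over DO, was found from the constants. The deposited log2 change lies up to 0.289 from the log2 ratio of the 2 constants, so a printed change need not equal the ratio of the constants beside it. Of its 2262 transcripts, 2237 matched a RefSeq symbol. The count table's Ensembl identifiers could not be paired with symbols here.

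HISAT-3N counts with settings D were analysed with edgeR 4.0.16 (quasi-likelihood, TMM, filterByExpr, Benjamini-Hochberg) in R 4.3.3, with DESeq2 1.42.0 as an alternative. Counts were fitted over 18 libraries in 12 groups. Converted and unconverted reads were fitted over 12 labelled libraries with a term per library. Class gaps used log2 of CPM (reads scaled to the normalised library total, computed here) plus 0.5. Both fits were tested on simulated counts. Same-group libraries differed beyond sampling noise (chi-square over degrees of freedom 4.85 for DO and 2.19 for IH). Genes named are those with the largest called change in each direction (at most 2 identifiers or 5 symbols), with a mean of at least 200 reads (100 for counts) and no overlap between handlings, plus 2 members per list. Other list members were named after their values were seen. Depth was 1935777 to 4611985 reads per library. The 10 samples of other chemistries were not analysed here.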

Additional observations from a re-analysis of the deposited data

How the results depend on the processing

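The count of genes with another converted share (1248 of 2803) became 476 of 1466 on reads with 25 to 40 T positions, 446 of 678 with at least 200 reads and 2650 of 3401 with intronic reads added. It stayed within 1.5 times under the other 7 settings, some of which tested more genes. It was 1372 of 4953 with at least 20 reads, 1362 of 3299 with STAR and 960 of 3208 with HISAT2. The share of tested genes called was thus lower there than in the main fit. Leaving out 1 library gave 369 to 1342. The count for exonic reads (7821 of 12449) ranged from 6666 to 9777 over its 9 settings and from 5925 to 7255 without 1 library. Without the filter on low counts it was 7480 of 24678. The intronic count (119) ranged from 102 to 124, and from 80 to 117 without 1 library. A setting chosen after seeing the data, without the mitochondrial contig, gave 120 of 151. The interaction called 0 genes in every setting but one: without the filter on low counts it called 2, both lower. The class gap in labelled counts (0.99) was 0.83 with at least 100 reads and 1.18 with 2 mismatches. That without s4U (0.94) was 1.10 with 10 classes and 1.13 with 2 mismatches. The median log2 odds ratio of the slowest class (0.86) was 1.61 with 2 mismatches, a setting in which the classes were sorted anew. The class gap of the authors' log2 changes (-0.24) was -0.27 with 10 classes and -0.32 with classes from TL alone, and 617 transcripts of the authors' deposited table passed 0.01. For the 2 largest changes named with a test, the log2 odds ratio of ENSG00000105486 (3.09) ranged from 2.33 to 5.24 and the log2 count change of ENSG00000203814 (-3.30) from -4.02 to -3.19. No such range was taken for ENSG00000263934, the one gene called lower. The difference between handlings of the class gap net of libraries without s4U stayed between -0.04 and 0.02, and between -0.09 and 0.08 without 1 library. The cause of these differences was not tested.

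Gene by gene, the differences between replicates 1 and 2 were almost uncorrelated between handlings. The correlations were 0.022 and 0.025 with OsO4 and NH3 and 0.0063 to 0.043 with the other chemistries. They leave out any shift common to all genes. Replicate 1 had the higher median converted share in both handlings, at 13.7% against 9.93% under DO and 27.03% against 22.8% under IH. Whether same-numbered replicates share a source was not tested. With the replicate block the counts were 1491 for the converted share, 7163 for exonic counts, 0 for the interaction and 124 for introns. Genes with fewer than 50 reads in a DO library, the shallower kind, are outside the share tests.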
